A study of Mus musculus with 18 samples.

Results

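Hippocampal messages were compared between tTA::miR132 mice, which make extra miR-132, and their nontransgenic controls. The comparison held 4 of the 18 samples of the series, chosen as the raw count columns of the transgenic and control groups in the table deposited for this comparison. The labels list 3 samples in each of these groups, and the 2 per group that the table counts were analysed here. All 10799 genes of the table were read, 1 entry per gene symbol, and 10734 passed the filter on low counts. Every animal was of the C57BL/6 strain and the tissue was whole hippocampus. In tTA::miR132 mice a tetracycline transactivator (tTA) drives a miR-132 transgene, and the labels do not name the promoter that drives tTA itself. The controls carry neither element, so an effect of tTA or of the insertion cannot be told apart from that of miR-132. Each group's 3 replicates were made by pooling the cDNA of 6 animals, per the series' design text. The labels used here give neither age nor sex. The columns are numbered while the labels use letters, so a library is called library 1 or 2 of its group and is tied to no single sample.

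A microRNA is a short RNA that guides Argonaute proteins to messages whose 3′ untranslated region (3′ UTR) pairs with its seed, bases 2 to 8 of the microRNA. Bound messages are broken down sooner or translated less, so the messages of direct targets can become scarcer when the microRNA is made in excess. miR-132 and miR-212 come from neighbouring genes, are induced by neuronal activity through the transcription factor CREB, and are known for effects on dendrite growth, spine shape and memory.

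The guide strands of both microRNAs share 1 seed, and the passenger strand of miR-132 has another. They are shown because every site search below rests on them, with the seed in capitals (mature sequences from RefSeq, build GRCm38.p6).
miR-132-3p: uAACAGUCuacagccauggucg
miR-212-3p: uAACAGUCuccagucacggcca
miR-132-5p: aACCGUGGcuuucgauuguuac
A gene matching the seed of miR-132-3p also matches that of miR-212-3p, so these data cannot tell sites of the pair apart. A 7-base match was the letters GACTGTT in the longest 3′ UTR annotated for the gene, read on the transcript's own strand. An 8-base match was the same letters followed by A, that is GACTGTTA.

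Sites of some genes named below are printed next, 5′ to 3′ on the transcript strand, with the match in capitals (GENCODE vM1 on NCBIM37, the genome also called mm9).
Mef2c: cagcagtatagGACTGTTgaacagcctggt
Nap1l1: agaatgggtggGACTGTTgattcaactacc
Sox5: tctcatacactGACTGTTAttttaactgtt
Arhgap32: gctggacagtgGACTGTTctattttttttc
These matches lie in 3′ UTRs at chr13:83803944-83803950 for Mef2c and chr10:110934212-110934218 for Nap1l1, both on the plus strand. That of Sox5 is at chr6:143781681-143781688 on the minus strand. That of Arhgap32 is at chr9:32068777-32068783 on the plus strand. Sox5 has 1 further match. The longest annotated 3′ UTR can run past the gene end listed with the counts. The matches of Ssh2, Gpr26, Cacng2, Eif2c3 and Lrp6, named below, and the further match of Sox5 are among those that lie beyond that end. A match is a description of the letters and not evidence of binding. The genes printed were all lower in tTA::miR132, but matched genes lay on both sides. Clock, Cacna1h and Plekha3, for example, carry a match and were higher.

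Total counts were 14772907 and 8772987 in tTA::miR132 libraries 1 and 2 against 9899963 and 8301385 in control libraries 1 and 2. The libraries were unequally complete: 92 to 485 genes had no count in a library, the most in control library 2, although each listed gene had at least 78 counts in some library. In every pair the libraries differed by more than sampling noise. Levels are given as CPM, counts scaled to a common total per library, and are not divided by gene length. Correlations of log2 CPM across genes, which are not independent replicates, ran from 0.750 to 0.917, and across groups transgenic library 2 and control library 1 were the most alike (0.917), above the transgenic pair (0.883) and the control pair (0.783). Control library 2 was the highest of the 4 for 72.6% of the genes with both transgenic libraries below both controls, and the lowest for 72.1% of those with both above. Neither Mir132 nor Mir212 is among the genes of the table, so the excess of the microRNA was not checked here. Markers of hippocampal cells were present in every library. The excitatory neuron list summed to 3160 and 3376 CPM against 3367 and 3757, and the astrocyte list to 9365 and 8881 against 9135 and 10690. In bulk tissue, fewer cells of a type and less RNA per cell cannot be told apart.

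The first question was how many hippocampal messages differ with extra miR-132. No gene passed an adjusted p of 0.05 in edgeR's quasi-likelihood test (0% of genes called). At an unadjusted p under 0.05 there were 303 genes (2.82%), 197 lower (1.84%) and 106 higher (0.988%) in tTA::miR132. DESeq2 called 39 genes, 24 lower (0.224%) and 15 higher (0.14%), 0.363% in all. limma-voom called 3 (0.0279%), Camk2n1, Enpp2 and Ttr, all lower. Both transgenic libraries lay below both controls for 16.1% of genes and above both for 16.8%, so the groups did not overlap for 33% of genes. These shares are the background against which every count of members below is to be read. Among genes with a mean of at least 100 CPM the shares were 20.4% below and 13.2% above. Those are the nearer comparison for lists of abundant genes. The smallest adjusted p by edgeR was 0.187, for Camk2n1, and every other gene stood at 0.997 or more. Unless said otherwise, a fold change below is edgeR's log2 ratio of tTA::miR132 to control with its SE, and none of them passed that test.

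How large a difference the design could resolve depended on the level of the gene. Below a mean of 10 CPM, the 2 transgenic libraries differed from each other by a median of 1.17 on the log2 scale and the 2 controls by 1.92, while the groups differed by 1.18. From 100 to 500 CPM these medians were 0.22, 0.34 and 0.21, and at 500 CPM or more 0.15, 0.18 and 0.10. At each of these levels the median difference between groups was smaller than that between the 2 controls, and it was within 0.05 of that between the 2 transgenic libraries or below it. The group value is a fitted ratio resting on 2 libraries per group, which alone narrows it. The other values compare single libraries, so the sizes are not directly comparable. A group difference over 2 times both within-group gaps was found for 625 of all 10734 tested genes. With 2 libraries per group such gaps can also arise by chance, and how often was not tested. Among the 2607 genes with a mean of at least 100 CPM, 173 had such a difference, 107 of them lower and 66 higher. Genes at this level leaned slightly to the lower side, with both transgenic libraries below the controls for 533 and above for 345, and with a median of -0.05.

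**Figure D1:**
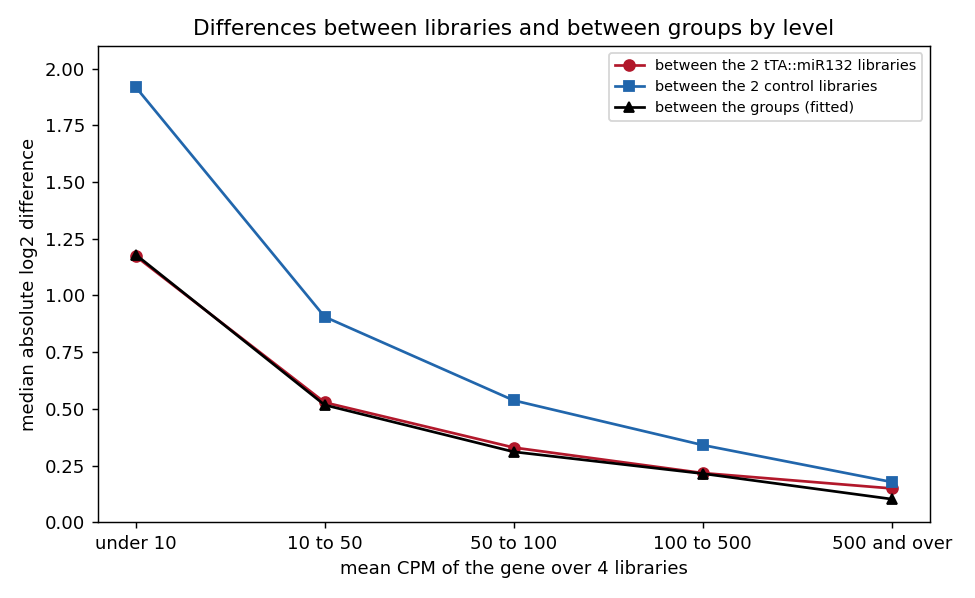
Median absolute log2 difference (vertical axis) between the 2 tTA::miR132 libraries, between the 2 control libraries and between the groups, for genes binned by mean CPM (horizontal axis). All 3 lines drop with level, and the group line stays at or under that of the controls, from 1.18 against 1.92 below 10 CPM to 0.10 against 0.18 at 500 CPM and over. The group line is a fitted ratio resting on 2 libraries per group, which alone narrows it, while the others compare single libraries.

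Among genes with a mean of at least 100 CPM, Camk2n1 had the smallest p. The product of Camk2n1 (NM_025451, chr4:138011063-138016041, plus strand, mm9) holds the synaptic kinase CaMKII in check. Its 846 and 836 CPM in the transgenic libraries stood well under the 1525 and 1725 of the controls (-0.95, SE 0.14). Pdcd4, an inhibitor of translation initiation, had 65.4 and 71.8 CPM against 167 and 148 (-1.20, SE 0.32). Nap1l1, a histone chaperone, had 163 and 173 CPM against 284 and 321 (-0.85, SE 0.23). Mef2c, a transcription factor that restrains excitatory synapse number, had 339 and 327 CPM against 605 and 472 (-0.69, SE 0.19). In each of these 4 genes the transgenic pair was tightly spaced and clearly under both controls. Nap1l1 and Mef2c each carry the 7-base match printed above, and Camk2n1 has none in its 3335-base 3′ UTR.

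C1ql3, a secreted C1q-like protein of synapses, had 267 and 295 CPM against 414 and 469 (-0.65, SE 0.19). Mtap7d1, a microtubule-associated protein gene, had 79.8 and 99.7 CPM against 170 and 190 (-1.004, SE 0.30). Rgs4, which shortens G protein signals, had 223 and 215 CPM against 364 and 316 (-0.63, SE 0.21). Arpp19, whose phosphorylated product inhibits the phosphatase PP2A, had 201 and 233 CPM against 341 and 345 (-0.66, SE 0.21). None of these groups overlapped, and the gap between them was wider than that within either group. DESeq2 called all 4, with adjusted p from 0.00743 for Mtap7d1 to 0.0176 for Rgs4. Among the 8 abundant genes with the smallest p in the lower direction 2 carry a miR-132 match, and among the 8 in the higher direction 0 do. Of all tested genes with a 3′ UTR, 13.3% carry such a match. Both sets of 8 were chosen by p, and whether their counts differ from that share was not tested.

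On the higher side, Nnat, an imprinted gene that modulates calcium stores, had 506 and 494 CPM against 313 and 271 (0.77, SE 0.19). Hdac11, a deacetylase gene active in brain, had 310 and 298 CPM against 224 and 174 (0.61, SE 0.23). Wnk1, a kinase of chloride transport, had 296 and 290 CPM against 217 and 167 (0.61, SE 0.23). For these 3 genes the transgenic libraries nearly coincided, and the controls were spread below them. Clptm1l had 204 and 172 CPM against 122 and 87.6 (0.85, SE 0.30), Fbxo9, part of a ubiquitin ligase, 304 and 246 against 183 and 167 (0.66, SE 0.24). Txnl1, a thioredoxin-like gene, had 250 and 166 CPM against 142 and 80.2 (0.90, SE 0.34). In these last 3 genes transgenic library 1 was the highest and control library 2 the lowest.

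**Figure D2:**
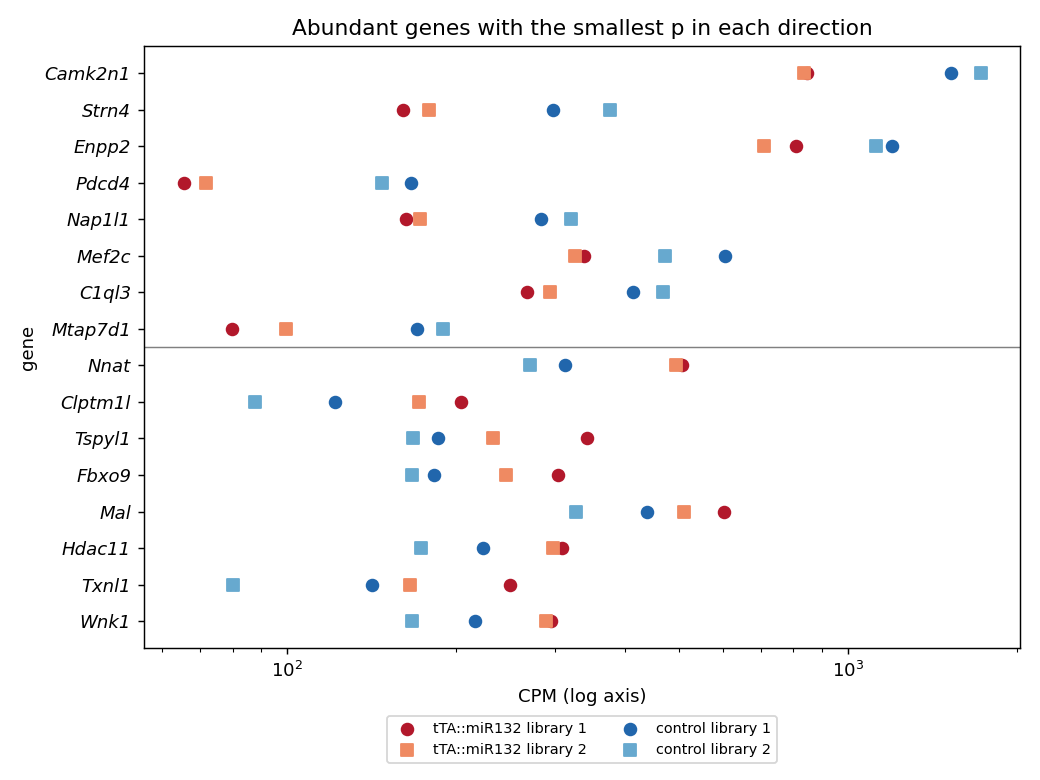
CPM on a log axis in each of the 4 libraries (red, transgenic; blue, control) for the genes with a mean of at least 100 CPM and the smallest p, 8 lower above the line and 8 higher below it. No gene shown has overlapping groups, as the choice by p favours, and control library 2 is the lowest of the 4 for all 8 higher genes.

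Genes at lower levels gave larger ratios on fewer counts. Plekha3, a Golgi lipid-binding protein gene with a 7-base miR-132 match, had 135 and 111 CPM against 60.5 and 61.7 (1.01, SE 0.35), and Zfp512, a zinc finger gene, 98.9 and 85.1 against 38.5 and 36.8 (1.29, SE 0.42). Both were called by DESeq2, with adjusted p of 0.031 and 0.00616. Gpr26, an orphan receptor gene of brain with an 8-base miR-132 match, had 9.34 and 11.5 CPM against 34.8 and 45.2 (-1.94, SE 0.72, DESeq2 adjusted p = 0.0232). Apaf1, the core of the apoptosome, had 22.6 and 17.1 CPM against 47.0 and 100 (-1.89, SE 0.55). Its control libraries differed by more than the gap between the nearest libraries of the groups. Tsga10 had 22.9 and 16.7 CPM against 1.31 and 0.75, and Senp8, a NEDD8 protease gene with a 7-base match, 29.6 and 16.3 against 3.02 and 1.49.

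Some genes had no count in either library of a group. Slc2a4, the insulin-responsive glucose transporter, had 0 and 0 counts against 15 and 303, at least 137-fold lower by a floor of 3 counts over the group. Leaving out any 1 library moved this bound, to 51.1 without transgenic library 1, 86.0 without transgenic library 2, 286.5 without control library 1 and 11.9 without control library 2. Il31ra, a cytokine receptor, had 0 and 0 against 74 and 168 counts (at least 104-fold lower, and 38.9, 65.5, 159 and 58.7 in the same order of libraries left out). Ecm2, a matrix protein gene, had 184 and 117 counts against 0 and 0 (at least 77.6-fold higher, or 35.4 without control library 1 and 42.2 without control library 2). Ssh2, a phosphatase that activates the actin-severing protein cofilin, had 152 and 56 counts against 0 and 0 (at least 53.6-fold higher, or 24.4 and 29.2 without control library 1 or 2), and its 3′ UTR holds an 8-base miR-132 match. Zeros were common in these libraries: 783 genes were at 0 in at least 1 library, 46 in both transgenic and 40 in both control libraries. Each listed gene had at least 78 counts in some library, so a gene at 0 throughout 1 group is listed only through the other group. Slc2a4 reached that level in control library 2 alone. A large difference in such genes follows in part from this listing and is no separate support. The bounds cover counting error only.

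The second question was whether messages with a miR-132 seed match differ from those without. In the 10608 tested genes with a 3′ UTR, 297 (2.8%) held an 8-base match and 1410 (13.3%) a 7-base match or better. Genes with an 8-base match had a median log2 fold change of -0.02, with 51.2% below 0. Those with only a 7-base match had -0.01, and the 9198 without a match had 0.00, with 49.9% below 0. The difference of the medians of 8-base and unmatched genes was -0.02. The same difference taken within each library, as deviations from the gene's mean, was -0.10 and 0.02 in the transgenic libraries against 0.00 and 0.02 in the controls (within-group SD 0.06). The 2 transgenic libraries lay on either side of the controls, so no shift of matched genes beyond the spread between libraries was detectable. The difference was 0.01 without transgenic library 1, -0.07 without transgenic library 2, 0.01 without control library 1 and -0.01 without control library 2.

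Both transgenic libraries lay below both controls for 18.2% of the genes with an 8-base match and above for 14.1%, against 16.0% and 16.9% of unmatched genes. Genes with 2 or more matches (172) had a median of 0.05. Matched 3′ UTRs were longer, with medians of 2192 bases for 8-base genes and 1163 for unmatched ones. In the third of genes with the longest 3′ UTRs the medians were -0.05 for 8-base and -0.03 for unmatched genes. At a mean of at least 100 CPM they were -0.03 (85 genes) and -0.04. The 334 genes with only a 7-base match at that level had a median of -0.08, with 61.1% below 0 against 56.05% of unmatched genes, and this difference was not tested. Genes with an 8-base match to the seed of other brain microRNAs, which this transgene does not encode, had medians of -0.03 for miR-9-5p, -0.01 for let-7a-5p and -0.05 for miR-128-3p. For the passenger strand miR-132-5p the median was 0.06 over 50 genes. The median for miR-132-3p lay within the range of these other seeds.

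**Figure D3:**
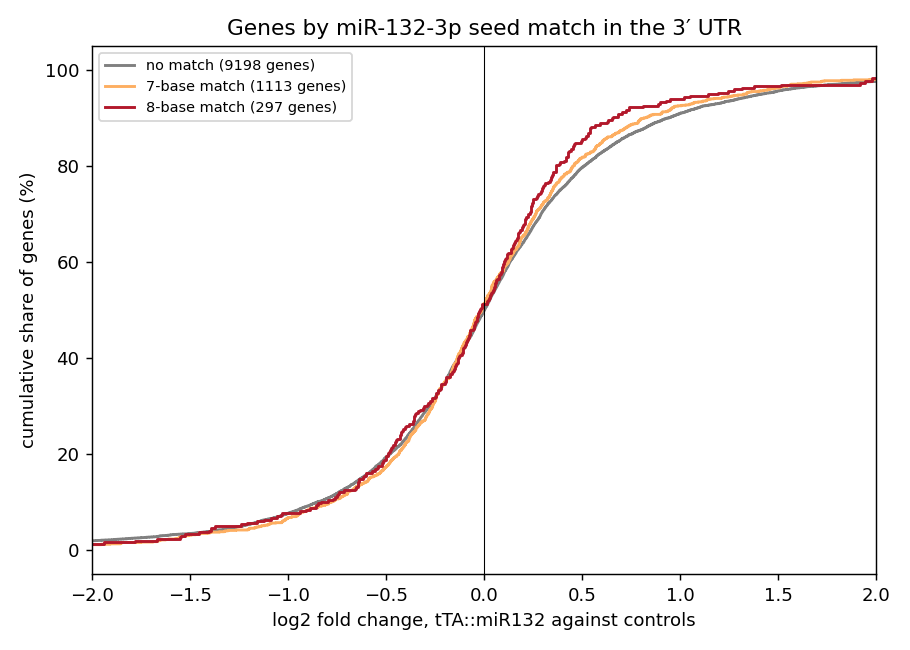
Cumulative share of genes (vertical axis, percent) by log2 fold change of tTA::miR132 against controls (horizontal axis, -2 to 2), for genes with an 8-base match, a 7-base match only or no match to the miR-132-3p seed. The 3 curves cross 0 close together, at 51.2%, 51.3% and 49.9%.

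Of 25 genes reported as targets of miR-132 or miR-212 by earlier work, 22 were measured and 0 were called. Their median was -0.18 against -0.00 for all genes, with 16 below 0, 5 with both transgenic libraries below both controls (22.7%, against 16.1% of all genes) and 1 with both above (4.55%, against 16.8%). Their median level was 93.8 CPM against 43.5 for all genes. Among genes with a mean of at least 100 CPM the shares were 20.4% below and 13.2% above, so the share below was near that of abundant genes. A seed match was found in 19 of the 22, and 15 of those 19 lay below 0. The median stayed negative in every fit tried, from -0.19 without transgenic library 2 to -0.09 without control library 1. In the latter fit 12 of the 22 lay below 0. Mapt, which encodes the microtubule protein tau, had 441 and 496 CPM against 591 and 720 (-0.48, SE 0.18) and was the only target with an unadjusted p under 0.05. Sox5, a transcription factor of neuronal fate, had 14.9 and 23.2 CPM against 33.5 and 37.1 (-0.89, SE 0.68). Its transgenic libraries were under both controls at levels where libraries of 1 group often differ as much.

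Arhgap32, also known as p250GAP and the target through which miR-132 was linked to dendrite growth, had 90.1 and 60.02 CPM against 92.2 and 112 (-0.44, SE 0.37). Its transgenic library 1 was nearly level with control library 1. Paip2, a repressor of translation, had 324 and 316 CPM against 328 and 441 (-0.26, SE 0.21), and only control library 2 was set apart. Btg2, an antiproliferative early gene, had 23.0 and 24.8 CPM against 38.1 and 29.25 (-0.50, SE 0.64). Ptbp2, a neuronal splicing regulator that acts on tau exons, had 234 and 221 CPM against 319 and 228 (-0.26, SE 0.24), with overlapping groups. Zeb2, a transcriptional repressor with an 8-base match, had 343 and 393 CPM against 371 and 452 (-0.16, SE 0.19), also overlapping.

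Other well known targets were not separated between the groups. Ache, acetylcholinesterase, had 118 and 89.2 CPM against 75.3 and 114 (0.13, SE 0.36). Ep300, the histone acetyltransferase p300, had 82.8 and 116 CPM against 82.8 and 65.2 (0.42, SE 0.37). Rasa1, p120RasGAP, had 124 and 165 CPM against 152 and 108 (0.15, SE 0.32). In all 3 the groups overlapped. Kdm5a (0.04, SE 0.35), Nr4a2 (-0.02, SE 0.28), Gsk3b (-0.20, SE 0.23) and Sirt1 (-0.10, SE 0.77) overlapped as well. Hbegf, an EGF family ligand, had 11.02 and 13.6 CPM against 10.5 and 10.2 (0.25, SE 1.25), the sole target with both transgenic libraries above. The remaining targets, Rfx4 (-1.66, SE 0.88), Mmp9 (-2.69, SE 3.68), Spry1 (-0.53, SE 1.18), Foxp2 (0.63, SE 1.47) and Itpkb (-0.19, SE 1.21), overlapped between groups too, and all but Rfx4 had an SE above 1.

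**Figure D4:**
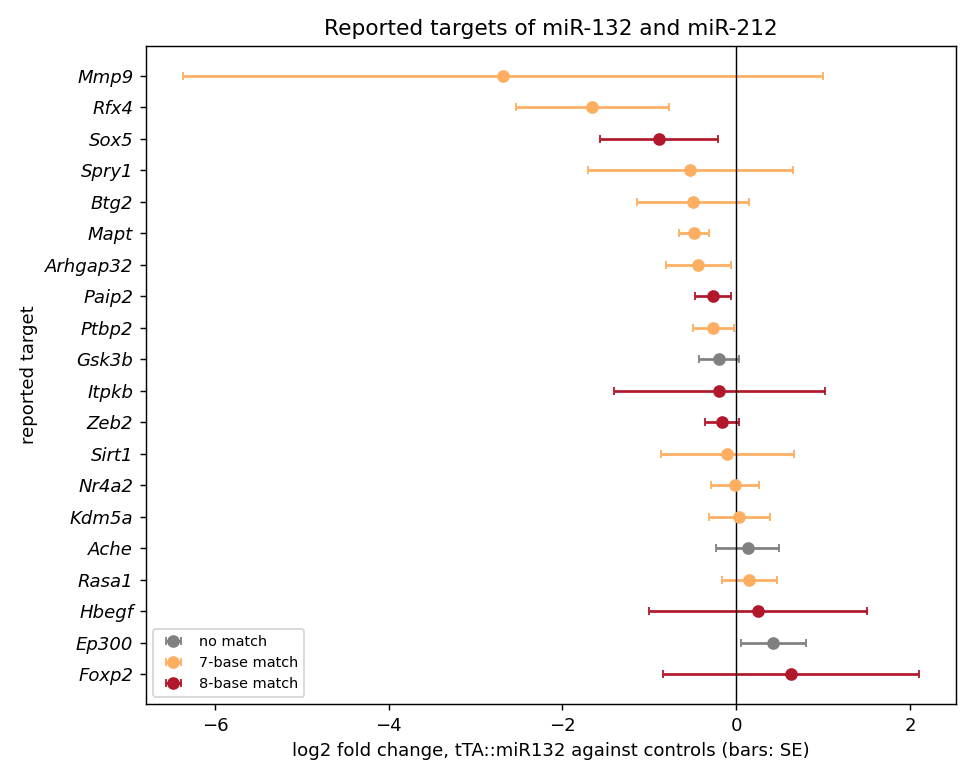
Log2 fold change of tTA::miR132 against controls with its SE for 20 of the 22 measured reported targets, coloured by the best miR-132-3p seed match in the 3′ UTR. Of the genes drawn 14 lie below 0, and Mapt (-0.48, SE 0.18) has the bar farthest from 0 relative to its length.

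The machinery that makes and uses microRNAs was examined as 27 listed genes, 24 of them measured, with 3 below and 3 above both controls (12.5% each). The median was -0.03, and 0.02, -0.15, 0.12 and -0.07 without transgenic library 1, transgenic library 2, control library 1 and control library 2. A pair of Argonaute genes lay on opposite sides. Eif2c3, Argonaute 3 with 2 matches, had 9.67 and 19.5 CPM against 39.3 and 37.2 (-1.39, SE 0.72). Eif2c1, Argonaute 1 with 1 match, had 90.7 and 88.0 CPM against 60.7 and 43.3 (0.78, SE 0.41). Dicer1, the nuclease that releases the mature duplex, had 70.7 and 80.8 CPM against 75.1 and 179 (-0.75, SE 0.42), with control library 2 far above the rest. Tnrc6a, a silencing partner of Argonaute, had 156 and 89.2 CPM against 60.3 and 91.9 (0.69, SE 0.39), with overlapping groups.

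Members of the CaM kinase group were abundant, with a median level of 471 CPM. Of 16 measured genes 11 lay below 0, the transgenic libraries were under both controls in 5 (31.2%) and over both in 0, with a median of -0.13. Among all genes with a mean of at least 100 CPM, 56.5% lay below 0, 20.4% under both controls and 13.2% over both. Camk4, the nuclear kinase that phosphorylates CREB, had 149 and 177 CPM against 219 and 265 (-0.57, SE 0.25). Nrgn, the calmodulin store neurogranin, had 1261 and 1361 CPM against 1597 and 1535 (-0.26, SE 0.13). Camk2b, the kinase's beta subunit, had 776 and 814 CPM against 862 and 1084 (-0.29, SE 0.16). The inhibitor Camk2n1, also of this list, had a larger difference (-0.95) than any of these 3. No member carries a seed match. The list's median was -0.03 without transgenic library 2, -0.03 without control library 2 and -0.20 without control library 1.

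Presynaptic genes were lower in several members, among them large scaffold proteins of the active zone, where vesicles fuse. Of 16 active zone genes 13 had a negative fold change, and in 10 the transgenic libraries were under both controls (62.5%), with a median of -0.37. This list was known from earlier results of these data to lie low, so its count is no separate support. Pclo, the scaffold piccolo, had 148 and 195 CPM against 269 and 329 (-0.81, SE 0.25). Unc13c, a vesicle priming factor, had 44.1 and 41.1 CPM against 56.6 and 98.0 (-0.86, SE 0.46). Rims1, a Rab3 partner at release sites, had 13.6 and 10.7 CPM against 25.3 and 62.7 (-1.86, SE 0.73), with the 2 controls far from each other. The median ran from -0.22 without transgenic library 1 to -0.77 without transgenic library 2. Of the 15 members with a 3′ UTR 3 hold a seed match, which 13.3% of all genes with a 3′ UTR do.

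Vesicle membrane and fusion genes were nearer to level, with 39 measured, 26 below 0, 8 below both controls (20.5%), 2 above (5.13%) and a median of -0.09, which became 0.03 without control library 1. Syt7, a slow calcium sensor, had 286 and 249 CPM against 299 and 434 (-0.45, SE 0.23). Napb, which recycles SNARE complexes, had 681 and 720 CPM against 865 and 818 (-0.26, SE 0.15). Vamp1, a vesicle SNARE, had 120 and 111 CPM against 141 and 263 (-0.81, SE 0.33), and control library 2 lay far above the rest.

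Of 24 postsynaptic scaffold genes 17 lay below 0, 8 below both controls (33.3%) and 2 above (8.33%), with a median of -0.20 that ranged from -0.20 to -0.26 with any 1 library left out. Strn4, a striatin that binds calmodulin and PP2A, had 161 and 179 CPM against 298 and 377 (-0.99, SE 0.23). Anks1b, which shuttles between synapse and nucleus, had 383 and 424 CPM against 484 and 495 (-0.28, SE 0.18). A pair of related MAGUK scaffolds went opposite ways. Dlg1 (SAP97) had 56.6 and 65.8 CPM against 104 and 176 (-1.19, SE 0.37), and Dlg2 (PSD-93) 191 and 148 against 117 and 73.8 (0.83, SE 0.33).

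Glutamate receptor genes split. The main AMPA receptor subunits were level: Gria1 had 895 and 954 CPM against 829 and 1018 (0.00, SE 0.15), and Gria2 1781 and 1951 against 1699 and 2020 (0.00, SE 0.13). Both were chosen for mention after their values were seen. Cacng2, the AMPA receptor auxiliary protein stargazin with an 8-base match, had 85.2 and 84.4 CPM against 145 and 112 (-0.60, SE 0.33). The kainate receptor genes Grik5 and Grik4 had 172 and 170 against 192 and 341 CPM (-0.64, SE 0.29) and 6.65 and 9.04 against 10.3 and 55.9 (-2.08, SE 0.97), and in both control library 2 stood far above the rest. Of 22 measured 5 were below both controls (22.7%) and 2 above (9.09%), with a median of -0.15, or -0.05 without transgenic library 1, -0.04 without control library 2 and 0.01 by limma-voom.

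Among GABA-A receptor genes, Gabrb2 had 470 and 502 CPM against 567 and 677 (-0.36, SE 0.17). It encodes the commonest beta subunit of adult brain, and its transgenic libraries lay below both controls. Of 11 measured members 6 lay below 0 and 5 above, with a median of -0.02, or 0.05 by limma-voom. The transgenic libraries were below both controls in 2 (18.2%) and above both in 0.

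Of 42 voltage-gated channel genes 15 were below both controls (35.7%) and 8 above (19%), with a median of -0.11, or 0.02 without control library 1, -0.06 without transgenic library 1 and -0.03 with a block on the column numbers. Scn3a, a sodium channel with a seed match, had 58.8 and 99.5 CPM against 104 and 164 (-0.76, SE 0.38). Cacna1h, a T-type calcium channel that also carries a match, went the other way, with 77.3 and 68.3 CPM against 33.1 and 21.5 (1.41, SE 0.49). Kcnb2, a delayed rectifier, had 15.6 and 9.48 CPM against 20.5 and 78.7 (-1.98, SE 0.76), with control library 2 far above the rest.

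Tau belongs to a wider set of microtubule genes, of which 31 were measured, 18 below 0, 12 below both controls (38.7%) and 1 above (3.23%), with a median of -0.08. Tuba1a, the main neuronal alpha tubulin, had 350 and 375 CPM against 418 and 488 (-0.32, SE 0.19). Mark1, a kinase that releases tau from microtubules, had 80.6 and 54.9 CPM against 93.2 and 129 (-0.71, SE 0.38). Stmn1, which binds free tubulin, had 30.9 and 48.2 CPM against 59.3 and 133 (-1.28, SE 0.49). Transgenic libraries were below controls in all 3, and the median was -0.01 without control library 1, -0.14 and -0.15 without transgenic library 1 or 2 and -0.17 without control library 2.

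Immediate early genes report recent neuronal firing, and their members were not uniform. Of 19 measured 15 lay below 0, 6 below both controls (31.6%) and 2 above (10.5%), with a median of -0.28 that turned to 0.08 without control library 2 and was -0.16 by limma-voom. Egr1 had 131 and 181 CPM against 183 and 237 (-0.43, SE 0.28), and transgenic library 2 matched control library 1 within 2 CPM. Fosl2 had 26.9 and 53.0 CPM against 57.3 and 76.3 (-0.74, SE 0.50). Fos, in contrast, had 63.7 and 48.6 CPM against 26.1 and 33.9 (0.91, SE 0.52), and Npas4, an activity-dependent factor of inhibitory synapses, 16.7 and 15.8 against 2.72 and 0. The canonical early genes therefore differed in sign, Fos and Npas4 being the pair above both controls.

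CREB and BDNF signalling, which lies upstream of the Mir132 gene, had 28 measured genes, 7 below both controls (25%), 4 above (14.3%) and a median of -0.09, or -0.05 without control library 1. Ntrk3, the NT-3 receptor TrkC, had 56.4 and 68.0 CPM against 96.7 and 112 (-0.74, SE 0.37), with groups well separated. Crem, a CREB relative, had 37.2 and 13.8 CPM against 55.5 and 44.1 (-0.96, SE 0.62). In the clock list, Clock itself, which carries a match, had 73.6 and 77.8 CPM against 38.9 and 20.9 (1.34, SE 0.50). Cry2, a repressor of Clock, had 82.4 and 101 CPM against 143 and 147 (-0.66, SE 0.31). The 19 clock genes had 3 below and 3 above both controls (15.8% each). Of 11 glucocorticoid-responsive genes 3 were below both controls (27.3%) and 0 above, with a median of -0.33 that turned to 0.15 without control library 2 and was -0.13 by limma-voom and -0.17 with a block on the column numbers. Klf9, a glucocorticoid-induced factor with a seed match, had 311 and 236 CPM against 357 and 396 (-0.46, SE 0.21), and Zbtb16, another such gene, 37.2 and 60.1 against 67.6 and 145.5 (-1.13, SE 0.46). Fkbp5, a cochaperone gene of the same list, had 81.1 and 60.6 CPM against 69.6 and 44.4 (0.31, SE 0.44), with overlapping groups.

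Other pathways were mixed. Of 22 PI3K pathway genes 12 were above 0, 4 below both controls (18.2%) and 3 above (13.6%). Their median of 0.02 lay below 0 with any 1 library left out, from -0.03 without transgenic library 1 to -0.16 without transgenic library 2, with -0.16 without control library 1 and -0.10 without control library 2. Pik3r1, its regulatory subunit with 2 matches, had 91.2 and 84.4 CPM against 107 and 166 (-0.64, SE 0.34), and Pdpk1, with 1, had 131 and 195 against 232 and 228 (-0.50, SE 0.27). Foxo1, a transcription factor that this pathway restrains, had 66.97 and 79.2 CPM against 66.5 and 24.8 (0.68, SE 0.52). Of 20 endoplasmic reticulum stress genes 5 were below both controls (25%) and 2 above (10%). Atf6, a stress sensor, had 46.0 and 54.9 CPM against 93.6 and 131 (-1.15, SE 0.39), and the chaperone Hsp90b1 420 and 485 against 540 and 750 (-0.51, SE 0.20). Hspa5, the best known marker of that stress and named after its values were seen, had 506 and 543 CPM against 490 and 472 (0.13, SE 0.17). Of 30 Wnt genes 7 were below both controls (23.3%) and 4 above (13.3%). The receptor gene Fzd3 had 107 and 115 CPM against 162 and 180 (-0.62, SE 0.29), and Lrp6, a coreceptor with a match, 14.0 and 16.6 against 33.6 and 53.4 (-1.51, SE 0.66). Of 40 chromatin genes 5 were below both controls (12.5%) and 6 above (15%). Among these Ehmt1, a histone methyltransferase, had 84.2 and 63.3 CPM against 45.4 and 37.8 (0.82, SE 0.45).

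Oligodendrocyte and myelin genes formed the list with the largest share above both controls among lists of at least 10 tested genes, 9 of 23 (39.1%), with 2 below (8.7%) and a median of 0.24. Mbp, myelin basic protein, had 3672 and 3404 CPM against 2914 and 3069 (0.24, SE 0.11). Mal, a myelin membrane protein, had 603 and 511 CPM against 438 and 328 (0.54, SE 0.20). Car2, an oligodendrocyte carbonic anhydrase, had 439 and 428 CPM against 380 and 267 (0.42, SE 0.21). In these 3 genes both transgenic libraries were above both controls, by a narrow margin for Mbp. The sign was positive with any 1 library left out, from 0.10 without transgenic library 1 to 0.34 without control library 1. Enpp2, made by oligodendrocytes and by the choroid plexus epithelium, was on the other side, with 808 and 708 CPM against 1200 and 1122 (-0.62, SE 0.15).

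Genes of the choroid plexus, the epithelium beside the hippocampus that secretes cerebrospinal fluid, summed to 5098 and 3737 CPM against 6639 and 5320. Ttr and Enpp2 held most of each sum, so it says little of the other members. Of 14 measured 9 lay below 0 and 5 above 0. Both transgenic libraries were below both controls in 5 (35.7%) and above both in 2 (14.3%), against 16.1% and 16.8% of all genes. The median was -0.51, or -0.27 without control library 1. The members described were chosen by p, and all of them lay on the lower side. Ttr, the thyroid hormone carrier transthyretin, had 3997 and 2761 CPM against 5081 and 3844 (-0.40, SE 0.17), so transgenic library 1 lay above control library 2. limma-voom called Ttr (adjusted p = 4.89e-05), while DESeq2 gave an adjusted p of 0.732. Kl, the klotho gene, had 50.6 and 27.2 CPM against 76.2 and 111 (-1.27, SE 0.47). The part of plexus tissue in the values of Enpp2 was not tested.

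Oxidative phosphorylation, a list of 66 measured subunits, had 27 below 0, 7 below both controls (10.6%), 12 above (18.2%) and a median of 0.10, which turned to -0.07 without transgenic library 1 and was 0.18 without transgenic library 2 and 0.04 without control library 2. Its members with the smallest p lay on both sides. Ndufs6 had 58.7 and 53.7 CPM against 101 and 114 (-0.93, SE 0.37) and Ndufa5 77.9 and 76.6 against 54.0 and 28.4 (0.91, SE 0.47), both of them complex I subunits. Of 15 microglial genes 2 were below both controls (13.3%) and 1 above (6.67%). C1qb had 89.6 and 69.9 CPM against 44.6 and 10.2 (1.54, SE 0.63), while Cx3cr1, the fractalkine receptor, had 75.4 and 59.2 against 93.1 and 113 (-0.61, SE 0.37). C1qa and C1qc, partners of C1qb in 1 protein complex that were named after their values were seen, overlapped between groups (-0.04, SE 0.53, and 0.04, SE 0.40). Of 16 astrocyte genes 5 were below both controls (31.2%) and 3 above (18.8%), with a median of -0.16, or -0.01 without control library 2. Aldh1l1, a folate enzyme, had 18.7 and 21.1 CPM against 49.3 and 47.4 (-1.28, SE 0.59). Gjb6, an astrocyte gap junction gene, had 201 and 133 CPM against 111 and 116.5 (0.55, SE 0.31), above both controls.

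**Figure D5:**
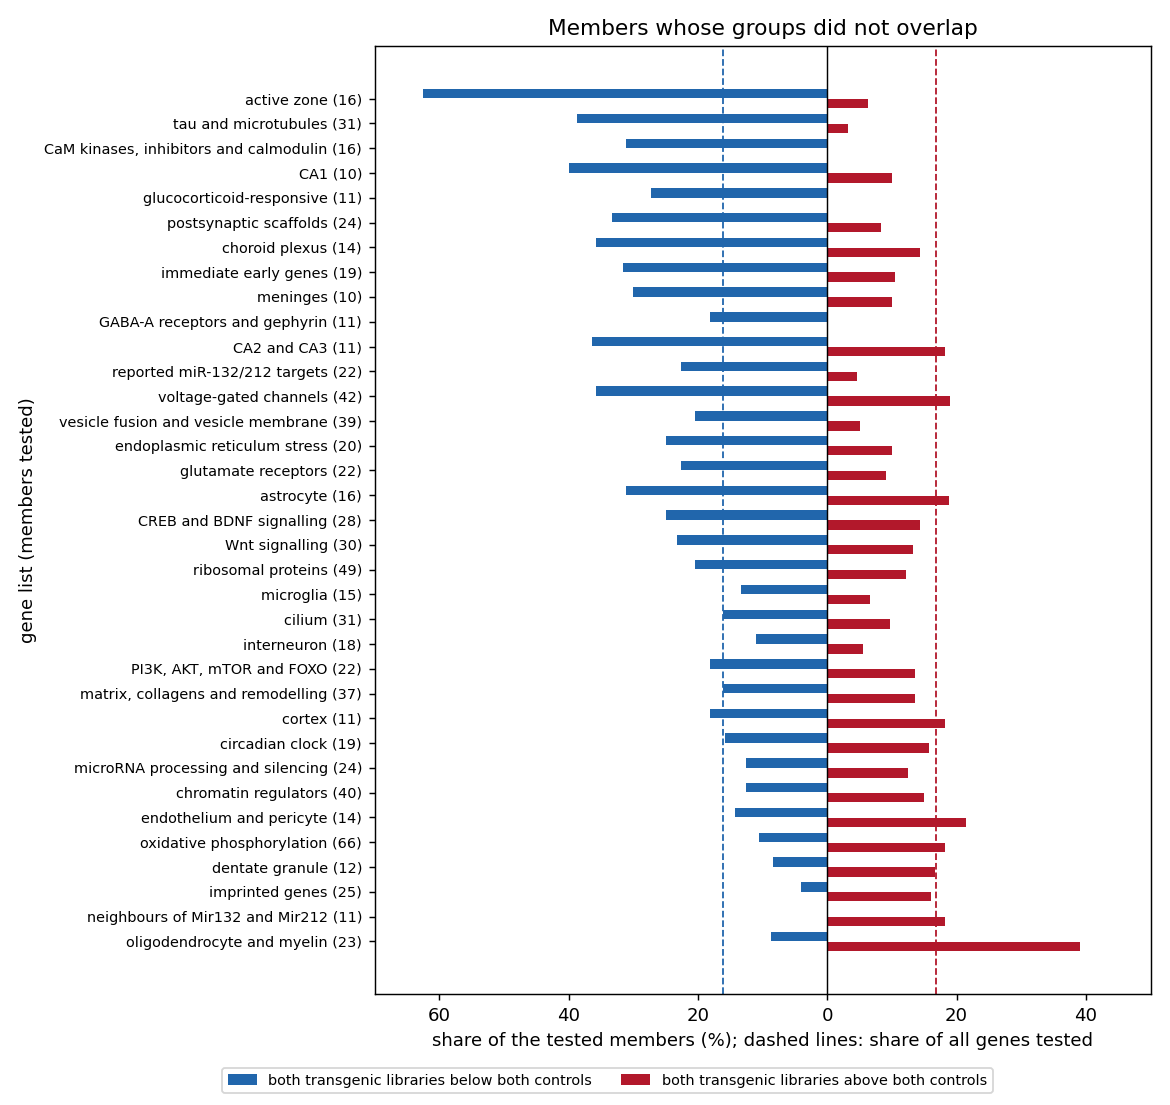
Share of the tested members of each gene list (rows, lists of at least 10 tested genes other than 1 not reported, number tested in brackets) with both transgenic libraries below both controls (blue, to the left) or above both (red, to the right). Dashed lines give the shares of all tested genes, 16.1% and 16.8%. The active zone list reaches 62.5% on the left and the myelin list 39.1% on the right, the extremes of the lists drawn. The active zone list was known from earlier results of these data to lie low, so its share is no separate support.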

How the data were processed

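Hippocampal mRNA was sequenced. The series' design text names Bowtie 0.12.7 and mm9 for alignment, and Cufflinks 1.2 for abundances that were not used. No source used here names the counting tool or the filter that left 10799 genes. The deposited values used are raw read counts per gene, whole numbers, per the file headers. The 4 columns of normalized values per library and the authors' fold changes and p-values were not used. edgeR 4.0.16 in R 4.3.3 fitted all genes with TMM factors, filterByExpr, robust quasi-likelihood and Benjamini-Hochberg adjustment at 0.05. CPM use TMM library sizes. Folds against a group at 0 use total counts and a floor of 3. Counts come from reads without molecular identifiers, so counting error understates the error. Replicates are pools of animals, so p-values measure the spread between libraries.

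Named genes are the 12 smallest edgeR p in each direction, the 8 smallest in each direction at a mean of at least 100 CPM, all measured reported targets, up to 4 smallest p of each of the other 43 lists, and genes called by DESeq2 1.42.0 or limma 3.58.1 (voom); not all are described. Members and lists were chosen with earlier results of these data known. Mtap was taken out of the microtubule list, where it stood by mistake, and Kank4 and Lox out of the meningeal list. The table lists no Y-linked gene. The 3′ UTR was the longest in GENCODE vM1, found for 10668 genes (10514 by symbol, 154 through RefSeq). The fitting was tested on simulated data. Alternatives were DESeq2, limma-voom, DESeq2's size factors, other filters, a replicate block and each library left out. Results for some genes, 1 gene list and 1 target site are not reported here.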

Additional observations from a re-analysis of the deposited data

How the results depend on the processing

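The count of genes called by edgeR was 0 with DESeq2's size factors, without a filter, at a mean of at least 100 counts and without robust estimation. It was 39 with DESeq2 and 3 with limma-voom. Leaving out 1 library gave 0 to 111 calls: 0 without transgenic library 1 or control library 2, 4 without transgenic library 2 (all lower) and 111 without control library 1 (94 higher, 17 lower). The single remaining library of a group is then assumed to vary like the other group. A replicate block on the column numbers gave 1 call, Camk2n1 (adjusted p = 2.68e-06). Libraries share only a number: the correlation of their deviations was 0.01 (0.03 at a mean of at least 100 counts). The difference of seed medians moved by less than the within-group SD in every alternative, from -0.07 without transgenic library 2 to 0.01 with the replicate block, so its sign is not fixed. None of the 31 genes named for their p changed sign in any fit where they were tested. All of them had groups that did not overlap, so leaving out a library could hardly reverse a sign. Their steady sign is therefore no separate support. Medians of 18 of 43 lists moved by over their within-group SD without control library 1, and of 19 without control library 2. Precision was lowest for genes under 50 CPM, where libraries of 1 group differed by a median of 0.53 or more on the log2 scale.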

Other observations

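Genes of 2 further kinds were looked at after their values were seen, so they are given as values only. Of 34 interferon-induced genes 18 were tested, 14 of them above 0, with a median of 0.73. Both transgenic libraries lay above both controls in 6 and below both in 2, beside 16.8% and 16.1% of all genes. Irgm1 and Gbp3, of the 6, had 7 and 2 counts in control library 2 but 186 and 59 in control library 1. Iigp1, an interferon-induced GTPase, had 355 and 99 counts in the transgenic libraries against 0 and 2, Ifit1, which binds viral RNA, 280 and 102 against 0 and 16, and Gbp6, a guanylate-binding protein, 335 and 152 against 45 and 0. Not every member followed: Ifit2 had 166 and 91 counts against 208 and 260, and B2m, part of MHC class I, 239 and 216 CPM against 277 and 236. DESeq2 called Iigp1 (adjusted p = 0.00245) and none of the others named here. Iigp1 and Gbp6 belong to families of near copies, among which the counting could have split reads.

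Of 18 neuropeptide genes 9 were tested. Oxt, oxytocin, had 372 and 40 counts against 0 and 0, at least 106-fold higher by the floor of 3 counts, or 27.7 without transgenic library 1, 48.4 without control library 1 and 57.7 without control library 2. Each listed gene had at least 78 counts in some library, and Oxt reached that level in transgenic library 1 alone. Its bound therefore follows in part from the listing and rests mainly on that library. Cartpt had 223 and 135 counts against 20 and 28. Sst and Npy, markers of hippocampal interneurons, had 507 and 451 against 512 and 419 CPM and 86.3 and 77.4 against 113 and 94.7 CPM.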
